A study of Micropterus salmoides with 45 samples.

Results

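Liver of largemouth bass (Micropterus salmoides) held for 12 h at 2 levels of low oxygen was compared: 3 libraries of severe hypoxia, at 1.2 ± 0.2 mg/L dissolved oxygen, against 3 of moderate hypoxia, at 3.0 ± 0.2 mg/L. These 6 libraries were taken by their titles from the 45 of the series, and 3 control libraries of the same hour, from water at 7 mg/L, serve as a reference. All fish were 6 months old, were kept at 20 °C and had no food during the trial. Each oxygen level had 3 tanks of 30 fish, 5 fish were taken from each tank, and nitrogen was bubbled in until the level was reached, which was counted as 0 h. Each library was sequenced as 125-bp paired-end reads. The title gives a replicate number but neither a tank nor a fish, so the p-values below measure the spread between libraries, which may be partly technical. Because no tank held both oxygen levels, tank and oxygen level cannot be told apart.

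Cells of vertebrates, fishes included, sense low oxygen mainly through hypoxia-inducible factors, transcription factors whose alpha subunits are degraded while oxygen is plentiful and accumulate when it is scarce. Their targets include glucose transporters, glycolytic enzymes and genes that dampen mitochondrial respiration. The liver stores glycogen and lipid and supplies other tissues from them, which is why the study asked how it handles glucose and lipid when oxygen falls. The deposited tables carry the identifiers of a de novo assembly (a component c and a gene g within it) and pair none of them with a gene name. Of the 2660 identifiers, 0 matched the RefSeq gene table of the species. Genes are therefore given by identifier, no sequence is shown, and the tissue could not be checked against marker genes. In a whole tissue, fewer cells of a type and less RNA per cell cannot be told apart.

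Values are RPKM, which scales the reads of a gene by its length in kilobases and by the sequencing depth, and differences are on the log2(RPKM + 1) scale, which understates the change of low genes. Of 2660 listed genes, 2656 reached 1 RPKM in at least 3 libraries and were tested. Read totals, read numbers and gene lengths were recovered from the values, as described below. Whether a unit is a read or a read pair is not given. The 9 libraries of 12 h held 29986862 to 33148917 reads, of which 11.5% to 14.95% fell on the listed genes. How the authors chose the genes they listed is not stated in the labels, so the shares below describe the list and not the liver as a whole. If genes were listed because they differed among these libraries, the adjusted p-values below would overstate the evidence. This could not be checked.

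Severe hypoxia set the liver apart from moderate hypoxia in 1070 genes, or 40.3% of those tested (limma, adjusted p under 0.05). There were 685 genes higher in severe hypoxia, 25.8% of those tested, and 385 lower, 14.5%. The 685 higher genes had a median difference of 1.23, with quartiles at 0.92 and 1.62, and 471 of them (17.7% of genes tested) differed by 2-fold or more, 89 by 4-fold or more and 24 by 8-fold or more. The 385 lower genes had a median difference of -1.04, and 213 (8.02%) differed by at least 2-fold, 19 by at least 4-fold and 2 by at least 8-fold. The median over all 2656 genes was 0.08. The folds counted here are of RPKM + 1, so they understate the change of low genes. With a pseudocount of 0.1 the same 685 and 385 genes had median differences of 1.52 and -1.34. All 3 severe libraries lay above all 3 moderate ones in 625 of the 685 higher genes, against 30.2% of all genes tested. All 3 lay below in 354 of the 385 lower genes, against 19.6% of all. The calls used these same 6 libraries, so little overlap is built into the lists and tests nothing. The balance of directions depended on the scaling. Quantile normalization gives each library the same set of values over the listed genes, which by itself works against an uneven balance. Which scaling is right was not tested. After quantile normalization the median over all genes moved by -0.12 to -0.04, and 484 genes were higher and 486 lower (36.5% of those tested in all, 18.2% and 18.3%), with 850 genes called in the same direction both ways. With voom, limma's method for read numbers, 1000 genes were called (37.7%), 649 higher (24.4%) and 351 lower (13.2%). When the model held the 6 libraries alone it called 572 genes (21.5%), 377 higher (14.2%) and 195 lower (7.34%).

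The higher genes took a larger share of the sequenced reads in severe hypoxia. They held 5.54%, 5.09% and 4.71% of the reads in severe replicates 1, 2 and 3, against 1.98%, 1.41% and 1.54% in the moderate replicates and 1.33% to 1.54% in control. The lower genes held 1.13%, 0.943% and 0.966% in severe hypoxia, against 2.19%, 2.56% and 2.50% in moderate hypoxia and 2.55% to 2.97% in control. These genes were chosen on the same libraries, so the shares describe them and test nothing. The 10 largest contributors carried 24.3% of the reads of the higher genes in severe hypoxia and 52.1% of those of the lower genes in moderate hypoxia. The share of the lower genes thus rests on fewer genes. Gene c78097_g1, singled out after its values were seen, alone carried 24.8% of the reads of the lower genes in moderate and 30.4% in severe hypoxia. The largest contributor to the higher genes carried 8.85% in severe hypoxia.

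Gene c84833_g1, 3872 bp long, showed the largest rise. It stood at 246, 8.66 and 120 RPKM in severe replicates 1, 2 and 3, at 0.279, 0.0973 and 0.184 in the moderate ones, and at 0.171, 0.164 and 0.565 in control. The moderate values rest on 34, 12 and 23 reads, the severe ones on 31145, 1064 and 15310. All severe libraries were far above both other groups, although severe replicate 2 lay well below the other 2. The difference was 5.80 (SE 0.91, adjusted p = 1.36e-05, limma).

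Gene c87655_g2, of 6610 bp, had a steadier rise. It reached 66.5, 121 and 96.3 RPKM in the severe replicates, against 4.25, 0.916 and 2.50 in the moderate ones and 0.832 to 1.40 in control. The severe libraries did not overlap with either group, and moderate replicate 2 was the one within the control range. The difference was 4.82 (SE 0.43, adjusted p = 8.61e-10).

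Gene c86594_g4, of 375 bp, was the second of the named rises, through 2 moderate libraries that almost lacked it. It stood at 334, 351 and 378 RPKM in severe hypoxia and at 0, 332 and 0.414 in moderate replicates 1, 2 and 3, which is 0 and 5 reads in the low ones. Control was at 382, 631 and 321 RPKM. Severe hypoxia and control overlapped (difference -0.27, SE 1.77, adjusted p = 0.901), while severe against moderate hypoxia gave 5.51 (SE 1.77, adjusted p = 0.0142). Across all 45 libraries the gene was either at 80.9 RPKM or above, in 40, or at 0.42 or below, in 5. The other 3 low libraries were moderate 0 h replicate 3, moderate 8 h replicate 1 and severe 4 h replicate 3. The call ended without moderate replicate 1 (4.03, adjusted p = 0.0946) or 3 (4.28, adjusted p = 0.078), with voom (adjusted p = 0.0963) and when the model held the 6 libraries alone (adjusted p = 0.1003).

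The largest falls were those of c86537_g5 and c90004_g1. Gene c90004_g1, of 623 bp, stood at 2.07, 1.92 and 0.34 RPKM in severe replicates 1 to 3, at 13.2, 35.8 and 11.5 in the moderate ones and at 21.1 to 40.3 in control. No severe library reached a moderate one, and moderate replicate 2 alone stood within the control range. The difference was -3.03 (SE 0.69, adjusted p = 0.00109). Gene c86537_g5, of 1062 bp, stood at 0.894, 0 and 0.912 RPKM in severe hypoxia, at 4.66, 14.9 and 21.9 in moderate hypoxia and at 11.1, 16.3 and 0.0294 in control. Control replicate 3 was as low as the severe libraries. Across all 45 libraries the gene was under 1 RPKM in 14, among them control 0 h replicate 1 (0 RPKM) and control 8 h replicate 2 (0.0885 RPKM). Its difference of -3.05 (SE 1.19, adjusted p = 0.0387) was no longer called without moderate replicate 2 or 3 or any 1 of the severe libraries (adjusted p from 0.0576 to 0.115), with a pseudocount of 0.1 (adjusted p = 0.0715) or with voom (adjusted p = 0.126).

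**Figure D1:**
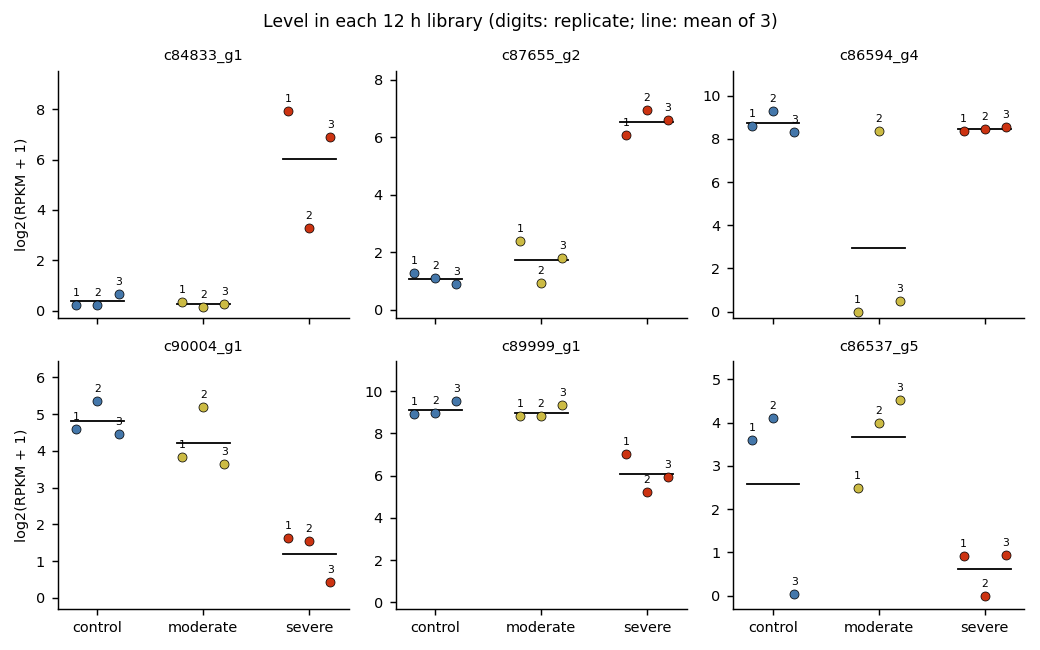
Levels of 6 genes in the 9 libraries of 12 h, as log2(RPKM + 1) on the vertical axis, by oxygen level; each point is a library with its replicate number and each line the mean of 3. In c86594_g4 moderate replicates 1 and 3 stand near 0 while moderate replicate 2 stands with control and severe hypoxia, and in c90004_g1 moderate replicate 2 stands with control.

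Moderate replicate 2 lay closer to the control libraries than to its own group. Over all genes tested, its root mean square (RMS) difference from the 3 control libraries of 12 h was 0.50, 0.44 and 0.66 on the log2 scale, against 0.79 and 0.88 from moderate replicates 1 and 3. Those 2 moderate libraries were 0.51 apart and 0.70 to 0.99 from control. The control libraries were 0.38 to 0.60 from each other, and the severe ones 0.61 to 0.72. Of the 15 groups of the series, the 3 nearest to moderate replicate 2 on average were control at 12 h (0.54), 8 h (0.59) and 24 h (0.62). From the severe libraries it was 1.27 to 1.41 away, about as far as control replicate 1 (1.23 to 1.37), whereas moderate replicate 1 was 0.93 to 1.03 away and replicate 3 1.08 to 1.18.

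The same standing showed gene by gene. In 48.7% of the genes tested moderate replicate 2 lay between the lowest and the highest control library, against 28.6% for replicate 1, 25.6% for replicate 3 and 10.99% to 14.1% for the severe libraries. Among the 685 higher genes moderate replicate 2 was the lowest of the 3 moderate libraries in 379 and the highest in 118, and replicate 1 was the highest in 474. Replicate 3 was the lowest in 257 of the 685. Among the 385 lower genes, replicate 2 was the highest in 239 and replicate 3 the lowest in 209. Both lists were called with replicate 2 included, which favours genes where it lies far from the severe libraries. The counts within the lists therefore test nothing. Over all genes tested replicate 1 was the highest in 41.5% and replicate 3 the lowest in 46.6%. Replicate 2 was the highest in 41.1% of them and the lowest in 37.4%. Neither its read total nor its share of reads on listed genes (12.0%) left the range of the other 12 h libraries. Whether its fish, its tank or its label differed was not tested.

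**Figure D2:**
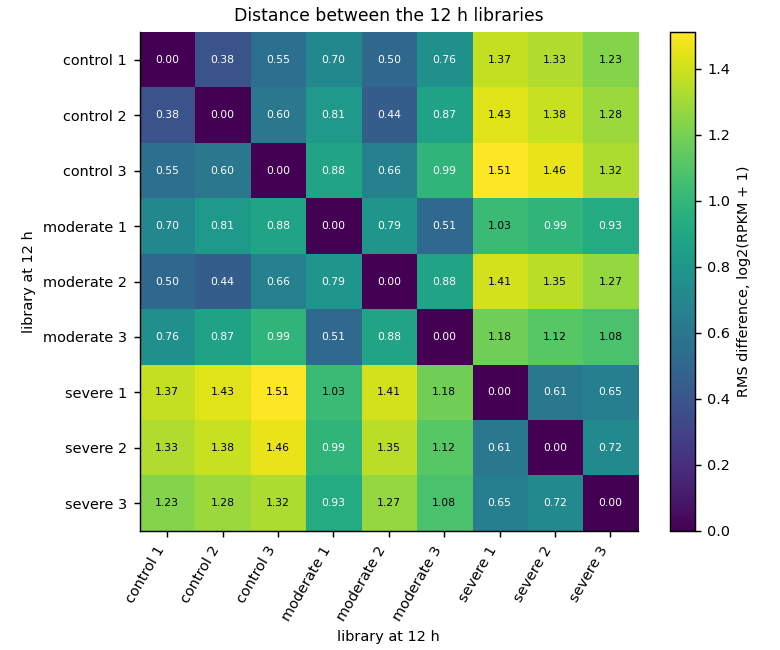
RMS difference in log2(RPKM + 1) over 2656 genes between each pair of the 9 libraries of 12 h, with both axes listing the libraries by oxygen level and replicate and darker squares for closer pairs. Moderate replicate 2 is 0.44 to 0.66 from the control libraries and 0.79 and 0.88 from the other 2 moderate ones.

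Leaving out moderate replicate 2 lowered the count of called genes more than leaving out any other of the 6 libraries. It left 487 genes higher, 18.3% of those tested, and 197 lower, 7.42%, 684 (25.8%) in all, of which 662 were among the 1070 and called in the same direction. Called in the opposite direction were 0. The median difference of the 685 higher genes went from 1.23 to 1.15 and that of the 385 lower genes from -1.04 to -0.91, while the median SE over all genes went from 0.34 to 0.37. Without moderate replicate 1 the count was 988 and without replicate 3 it was 990, at nearly the same SE (0.38 each). Without severe replicates 1, 2 and 3 it was 772, 806 and 986. With quantile normalization as well, a check added after the data were seen, the count without moderate replicate 2 was 588 (22.1%), 301 higher (11.3%) and 287 lower (10.8%). Of the leading genes, c84833_g1 (5.75, adjusted p = 0.000155), c87655_g2 (4.44, adjusted p = 8.93e-08) and c90004_g1 (-2.54, adjusted p = 0.0145) were still called without it, and c86594_g4 had a larger difference (8.22, adjusted p = 0.000938).

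**Figure D3:**
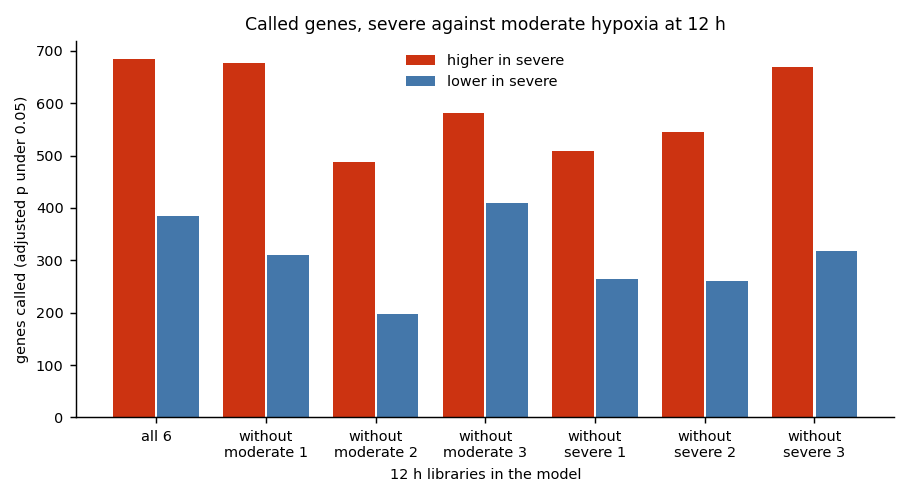
Genes called higher or lower in severe than in moderate hypoxia at 12 h (bars, counts from 0, limma adjusted p under 0.05), with all 6 libraries and with each left out in turn, on the horizontal axis. The lowest pair of bars, 487 and 197, is the one without moderate replicate 2.

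In severe hypoxia 1866 genes differed from control at 12 h, 70.3% of those tested, 977 higher (36.8%) and 889 lower (33.5%). By their medians, the genes that differ between the oxygen levels stood nearer to control in moderate than in severe hypoxia. The 685 higher genes had a median difference from control of 1.39 in severe and 0.17 in moderate hypoxia, or 0.24 without moderate replicate 2. Over all genes tested these medians were 0.08, -0.03 and -0.05. The 385 lower genes had medians of -1.32 in severe and -0.24 in moderate hypoxia, or -0.37 without moderate replicate 2. Both differences share the control libraries, and the genes were chosen with the severe and moderate ones, so the medians are given side by side only. Single genes often lay outside the control range. Of the 685 genes, 26.9%, 51.4% and 29.5% were within it in moderate replicates 1, 2 and 3. For the 385 genes these shares were 34.0%, 46.8% and 25.7%, and over all genes tested 28.6%, 48.7% and 25.6%. Libraries stood in full order, with all control below all moderate and all moderate below all severe, in 98 genes, or 3.69% of those tested, 66 of them among the higher genes. The reverse full order held for 86 genes, or 3.24%, 55 of them among the lower genes. Moderate hypoxia lay on the far side of control in few: all moderate below all control below all severe in 7 genes, 0.264%, and the mirror order in 4, 0.151%.

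Gene c84828_g3, of 3317 bp, stood in full order from control through moderate to severe hypoxia. Its step from control to moderate hypoxia was not called with all libraries. It was at 0.50, 0.563 and 0.50 RPKM in control, at 8.85, 0.776 and 7.84 in moderate replicates 1 to 3 and at 119, 70.0 and 129 in severe hypoxia. The groups did not overlap, but moderate replicate 2 sat just above control. Severe exceeded control by 6.09 (SE 0.66, adjusted p = 2.03e-08), the largest rise against control at 12 h, and exceeded moderate hypoxia by 4.27 (adjusted p = 1.18e-05). Moderate hypoxia exceeded control by 1.82 (adjusted p = 0.166), or by 2.62 (adjusted p = 0.0165) without moderate replicate 2. That library was set aside for its likeness to control, so the second value is no test of the step.

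In contrast, c84881_g1, a leading fall against control, did not separate the 2 oxygen levels. It stood at 2.38, 1.72 and 0.95 RPKM in severe hypoxia, at 8.66, 0.985 and 46.3 in moderate hypoxia and at 45.9, 14.6 and 32.3 in control. Here moderate replicate 2 stood with the severe libraries. Severe hypoxia was below control (-3.47, SE 1.17, adjusted p = 0.00994), and its difference from moderate hypoxia was -1.89 (SE 1.17, adjusted p = 0.189), or -3.03 (adjusted p = 0.0696) without moderate replicate 2. The gene also varied widely in control at other times, up to 142 RPKM at 4 h. Control replicate 2 stood at 0.881, 2.02 and 0.819 RPKM at 0, 4 and 8 h, as low as severe hypoxia at 12 h.

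Moderate hypoxia itself was not told apart from control at 12 h with all 3 libraries: limma called 0 genes, as did limma without the intensity trend and voom, and 452 had an unadjusted p under 0.05. When the model held the 6 libraries alone it called 1 gene, c88985_g8, singled out after its values were seen, at 0.107, 0.142 and 0.327 RPKM in moderate hypoxia against 2.77, 2.89 and 2.15 in control (adjusted p = 0.0451). Without moderate replicate 2, 300 genes (11.3%) were called, 98 higher, 3.69% of those tested, and 202 lower, 7.61%. Quantile normalization gave 317 (11.9%), 152 (5.72%) and 165 (6.21%), in that case. Leaving out any other of these 6 libraries gave 0. Moderate replicate 2 was set aside because it resembled control, which by itself favours calls against control. The counts without it therefore describe its weight and are no test of moderate hypoxia. To be named, genes called without moderate replicate 2 needed a mean of 5 RPKM over the libraries compared, which c84828_g3 did not reach. Of those that did, c83827_g1 had one of the 2 largest rises. It stood at 284 and 273 RPKM in moderate replicates 1 and 3 against 66.2, 44.1 and 50.6 in control (difference 2.38, SE 0.51, adjusted p = 0.00886). With all libraries its difference from control was 1.72 and not called (adjusted p = 0.127). Moderate replicate 2 stood at 70.8 RPKM, just above control, and the severe libraries at 234, 142 and 134 RPKM overlapped with the moderate ones (severe minus moderate -0.10, SE 0.50, adjusted p = 0.883). Control at other times reached 175 RPKM, at 24 h, below moderate replicates 1 and 3.

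The other of these rises, c88297_g8, is a short gene of 210 bp. It stood at 13.0 and 24.7 RPKM in moderate replicates 1 and 3, at 2.84 in replicate 2 of that group, at 7.04, 0.635 and 1.19 in control and at 1.02, 0.601 and 0.288 in severe hypoxia. Its rise over control was 2.63 (SE 0.78, adjusted p = 0.0293) without moderate replicate 2, but 1.86 and not called with all libraries (adjusted p = 0.195). Control at other times reached 14.6 RPKM at 4 h and 16.0 at 24 h, between moderate replicates 1 and 3. Severe hypoxia was lower than moderate hypoxia with all libraries (-2.79, SE 0.73, adjusted p = 0.00346).

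Among the falls under the same minimum, c86594_g4, described above, led with -8.49 (adjusted p = 0.00728). With all libraries its difference from control was -5.78 and not called (adjusted p = 0.134). Gene c87933_g3 followed, at 7.29 and 9.49 RPKM in moderate replicates 1 and 3 against 33.4, 40.7 and 83.7 in control (-2.41, SE 0.79, adjusted p = 0.0433). Moderate replicate 2 was lower still at 5.20 RPKM, and severe hypoxia stood at 13.0, 6.78 and 12.5. Control at other times went down to 11.7 RPKM, at 4 h, still above the moderate libraries. With replicate 2 the gene's own difference was larger (-2.61, unadjusted p = 0.00068 against 0.00435) but not called (adjusted p = 0.0933), because the adjustment depends on all genes tested.

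The gap between the oxygen levels was next followed through the other times, whose libraries do not enter the 12 h differences. Their spread does enter the 12 h calls, because the model held all 45 libraries. Genes with a low spread are thus favoured in the calls at every time. The tanks of a level may be the same at all times. At 0 h the 685 higher genes had a median severe minus moderate difference of 0.01, and 51.8% were on the severe side, against 43.8% of all genes tested; 1 was called higher, as were 0.0377% of all. After 4 h the median was 0.26 and 76.2% were on that side (46.5% of all). After 8 h these were 0.54 and 85.7% (47.4% of all), and after 24 h 0.73 and 93.0% (59.6% of all). Of the 685, 72 were called higher at 4 h, 178 at 8 h and 256 at 24 h, where 3.43%, 9.30% and 15% of all genes tested were called higher. Called lower at those times were 0 of the 685, against 0.640%, 4.37% and 3.12% of all genes tested. Choice on the 12 h libraries makes the gap at 12 h look larger beside other times than it would in genes chosen without them.

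The 385 lower genes followed in the other direction. From 0 through 4 and 8 to 24 h their median differences were -0.10, -0.32, -0.52 and -0.27, and those below moderate hypoxia made up 64.2%, 80.5%, 89.9% and 78.2%. Of all genes tested, 43.8%, 46.5%, 47.4% and 59.6% lay above moderate hypoxia at these times, so many lay below it without being chosen. Called lower were 12 of the 385 at 4 h, where 0.640% of all genes were, 73 at 8 h (4.37% of all) and 45 at 24 h (3.12% of all). Gene c39124_g1, singled out after its values were seen, was the 1 of the 385 called higher at 24 h, at 7.42, 5.89 and 8.57 RPKM in severe against 1.76, 3.48 and 4.27 in moderate hypoxia (1.03, SE 0.28, adjusted p = 0.0101). Across all 2656 genes the differences seen after 12 h had an r of 0.233 with the 0 h differences, 0.571 with 4 h, 0.707 with 8 h and 0.613 with 24 h, a description over genes, which are not replicates.

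**Figure D4:**
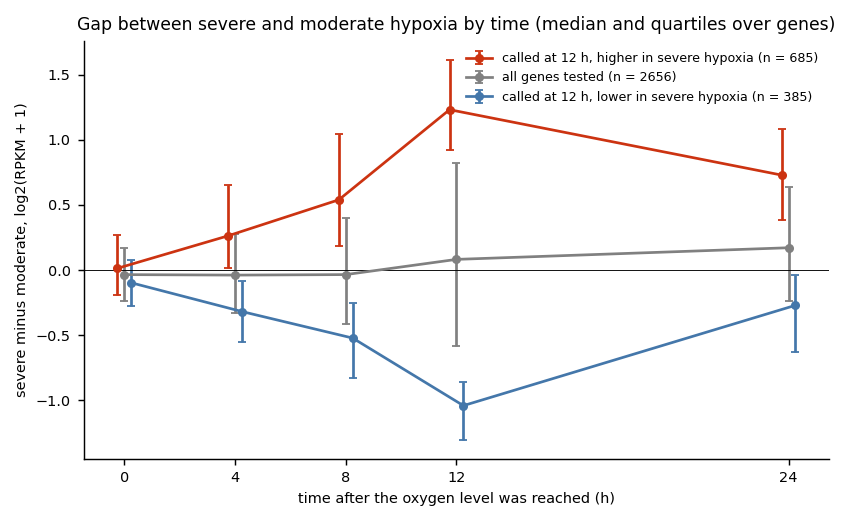
Severe minus moderate difference in log2(RPKM + 1) at each sampling time in hours, as the median over genes with bars from the lower to the upper quartile, for the genes called higher or lower at 12 h and for all genes tested. The medians of the higher genes go from 0.01 at 0 h to 0.54 at 8 h, 1.23 at 12 h, the time that chose them, and 0.73 at 24 h.

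Median levels of the same genes moved between 12 and 24 h in both hypoxia groups, for the 685 genes mainly in the moderate one. The median level of the 685 genes in moderate hypoxia was 2.12 at 12 h and 2.62 at 24 h, on the log2 scale, against 3.50 and 3.40 in severe hypoxia and 1.91 and 1.96 in control. For the 385 genes the moderate median was 2.92 at 12 h and 2.40 at 24 h, against 1.76 and 2.14 in severe hypoxia and 3.06 and 3.09 in control. At 0, 4 and 8 h the moderate median was 2.32, 2.25 and 2.44 for the 685 genes. For the 385 genes it was 2.82, 2.81 and 2.78 at those times. Among the sampling times, the moderate median at 12 h was thus the lowest for the 685 genes and the highest for the 385. Choice on the 12 h libraries favours such values, so the step to 24 h cannot be told apart from that choice. These are medians of group means, with no test of the step from 12 to 24 h.

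Tested gene by gene, the gap at 12 h differed from that at 24 h in 44 genes, 1.66% of those tested, 24 (0.904%) with a more positive gap at 12 h and 20 (0.753%) with a more negative one (474 at an unadjusted p under 0.05). Gene c87655_g2 led among the rises that held: its moderate libraries reached 34.4, 41.8 and 44.7 RPKM at 24 h, close to the 50.5, 51.9 and 59.3 of the severe ones. Its gap was thus 4.82 at 12 h and 0.42 at 24 h, a difference of 4.41 (SE 0.61, adjusted p = 4.96e-05). Gene c73830_g1 stood at 203, 57.0 and 75.8 RPKM in severe and 8.90, 3.61 and 7.74 in moderate hypoxia at 12 h, and at 14.6, 24.3 and 33.9 against 37.6, 36.3 and 67.8 at 24 h. At 24 h all severe libraries stood below the moderate ones, but that gap was not called (-0.95, SE 0.85, adjusted p = 0.489). The gaps at 12 and 24 h differed by 4.67 (SE 1.20, adjusted p = 0.0363).

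The abundant gene c89999_g1, of 4816 bp, showed the same convergence from above. At 12 h it stood at 127, 36.2 and 60.5 RPKM in severe hypoxia against 450, 445 and 639 in moderate hypoxia, where control was at 480, 494 and 726. At 24 h the moderate libraries had come down to 79.1, 119 and 163 RPKM, within the spread of the severe ones at 84.1, 199 and 76.2. The gap was -2.93 at 12 h and -0.09 at 24 h (difference -2.84, SE 0.59, adjusted p = 0.012). Gene c84766_g3, of 5577 bp, had gaps of opposite sign at 12 and 24 h. At 12 h severe hypoxia stood at 2.20, 0.633 and 2.01 RPKM against 9.45, 19.0 and 6.79 in moderate hypoxia. At 24 h severe hypoxia stood at 6.41, 7.20 and 4.19 against 2.16, 2.05 and 3.32 in moderate hypoxia. The gaps differed by -3.20 (SE 0.77, adjusted p = 0.0363), but that at 24 h was not itself called (0.97, SE 0.54, adjusted p = 0.214).

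The count for 24 h turned on single libraries. It was 3, 16 and 18 without severe 24 h replicates 2, 3 and 1, and 10, 11 and 16 without moderate 24 h replicates 1, 2 and 3. It was 7, 16 and 74 without severe 12 h replicates 1, 2 and 3, 17 without moderate 12 h replicate 2, and 23 when the 4 groups were modelled alone. The call of c87655_g2 held in each alternative run. That of c89999_g1 ended without moderate 24 h replicate 1 (adjusted p = 0.053) or severe 24 h replicate 2 (0.0614) and with the 4 groups modelled alone (0.0813). That of c73830_g1 ended with a pseudocount of 0.1 (adjusted p = 0.0502) and without any 1 of 10 of the 12 libraries, the exceptions being moderate 12 h replicate 1 and severe 12 h replicate 3 (adjusted p from 0.0504 to 0.111). That of c84766_g3 ended with voom (adjusted p = 0.0508) and without any 1 of severe 12 h replicates 1 and 2, moderate 12 h replicate 2, severe 24 h replicates 1 and 2 and moderate 24 h replicates 1 and 2 (0.0554 to 0.0943).

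**Figure D5:**
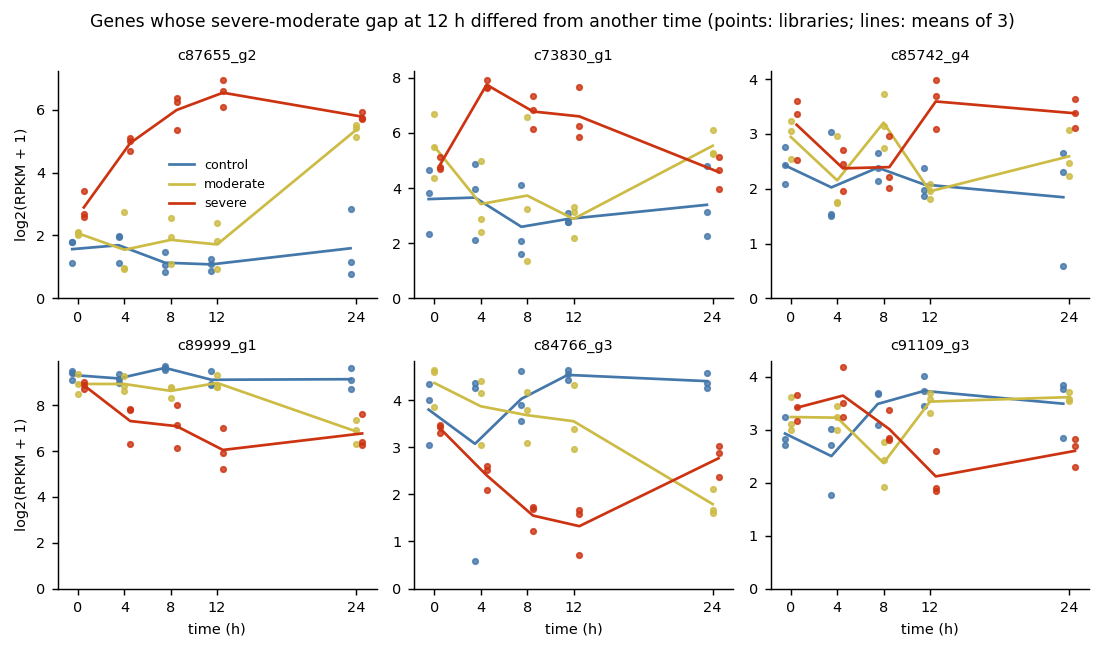
Levels of 6 genes as log2(RPKM + 1) against time in hours at the 3 oxygen levels; points are libraries and lines join the means of 3. In c87655_g2 and c89999_g1 the moderate line is near control at 12 h and near the severe line at 24 h.

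Against the start of the trial, the gap at 12 h differed in 330 genes, 12.4% of those tested, 265 of them positive (9.98%) and 65 negative (2.45%), with 832 at an unadjusted p under 0.05. After quantile normalization the positive and negative counts were 150 and 98, and the median over all genes went from 0.15 to -0.04. Gene c84833_g1 was at 0.717, 0.786 and 0.147 RPKM in severe and 1.41, 0.104 and 0.0636 in moderate hypoxia at 0 h, so that nearly all of its gap arose later (5.70, SE 1.28, adjusted p = 0.00485; 0.142 with voom). Gene c73830_g1 came second (4.37, SE 1.20, adjusted p = 0.0148). At 0 h it was at 33.9, 26.2 and 24.5 RPKM in severe and 19.4, 101 and 43.7 in moderate hypoxia, and at 4 h already at 243, 202 and 199 against 30.4, 4.32 and 6.32. Without severe 12 h replicate 1 its call ended (adjusted p = 0.0531).

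The falls since 0 h were led by c86863_g6 and c89999_g1. Gene c86863_g6, of 2029 bp, stood at 0.181, 1.65 and 0.209 RPKM in severe and 6.41, 21.0 and 10.2 in moderate hypoxia at 12 h, while at 0 h the groups overlapped at 11.4, 4.13 and 14.97 against 1.93, 6.98 and 14.0 (-3.49, SE 0.95, adjusted p = 0.0143; 0.0636 without moderate 0 h replicate 1). Gene c89999_g1 had 525, 467 and 425 RPKM in severe and 494, 659 and 361 in moderate hypoxia at 0 h, and its gap changed by -2.87 (SE 0.59, adjusted p = 0.00323). The count of 330 was 194 without moderate 0 h replicate 1.

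Between 8 and 12 h the gap changed in 44 genes, 1.66% of those tested, 13 positive (0.489%) and 31 negative (1.17%) (419 at an unadjusted p under 0.05). For the leading genes it was small or of the other sign at 8 h, and it was not called then for any of them (adjusted p from 0.171 to 0.986). Gene c85742_g4, of 1450 bp, stood at 14.8, 11.9 and 7.56 RPKM in severe and 3.24, 2.90 and 2.50 in moderate hypoxia at 12 h, but at 3.61, 3.05 and 6.76 against 7.81, 12.2 and 5.72 at 8 h (2.45, SE 0.59, adjusted p = 0.0165). Gene c90181_g5, of 4278 bp, went from overlapping groups at 8 h, 15.1, 9.22 and 16.4 RPKM against 17.9, 9.49 and 13.8, to 29.8, 29.0 and 21.8 against 11.4, 5.30 and 5.76 at 12 h (1.78, SE 0.37, adjusted p = 0.00312). Gene c91109_g3, of 2780 bp, had gaps of opposite sign at 8 and 12 h. At 8 h severe hypoxia stood at 9.36, 6.04 and 6.21 RPKM against 5.81, 4.38 and 2.79 in moderate hypoxia (0.64, SE 0.30, adjusted p = 0.171). At 12 h it stood at 2.61, 5.09 and 2.73 against 8.97, 11.0 and 12.0, and the gaps differed by -2.05 (SE 0.43, adjusted p = 0.00323).

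Gene c87965_g1, of 3071 bp, was the second of the falls since 8 h. It stood at 132, 102 and 55.7 RPKM in severe and 181, 221 and 204 in moderate hypoxia at 12 h, after 156, 167 and 137 against 72.5, 123 and 154 at 8 h (-1.59, SE 0.39, adjusted p = 0.0191). Its call ended without any 1 of moderate 8 h replicate 1, moderate 12 h replicates 2 and 3, severe 8 h replicates 1 and 2 and severe 12 h replicate 3 (adjusted p from 0.051 to 0.104) and with the 4 groups modelled alone (0.204). That of c85742_g4 ended without moderate 8 h replicate 2, moderate 12 h replicate 3, severe 8 h replicate 1 or 2 or severe 12 h replicate 1 (0.051 to 0.0652), and that of c90181_g5 with the 4 groups modelled alone (0.132). The count of 44 was 115 without severe 8 h replicate 3, 82 without severe 12 h replicate 3 and 28 with the 4 groups modelled alone.

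The share of genes called varied somewhat with level, and with length mainly for the higher genes. The share called higher was 21.4%, 24.1%, 25.8% and 31.9% over 4 equal classes of genes from the shortest to the longest, and the share called lower 13.6%, 15.7%, 14.8% and 14.0%. Over 4 classes from the least to the most abundant, 29.7%, 26.7%, 24.7% and 22.1% were called higher and 10.8%, 16.4%, 16.3% and 14.5% lower. The median length was 2951 bp in the higher genes and 2583 bp in the lower ones, against 2591.5 bp over all genes tested. The 1070 called genes came from 942 components of the assembly. In 106 components at least 2 genes were called, 234 genes together, and in 97 of these all called genes went the same way. Genes of a component can be parts or copies of a gene that share reads, so they are not independent. Few genes had reads at only one of the oxygen levels. Of the 2656 genes tested, 26 had no reads in any moderate library and 23 of these had none in any severe library either; 1 of the 26 was called higher in severe hypoxia. This was c80321_g1, singled out after its values were seen, at 41.6, 0.237 and 14.7 RPKM in severe hypoxia, with no reads in control either. Conversely, 25 genes had none in any severe library, the same 23 included, and 0 of them were called lower.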

How the data were processed

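The authors assembled 125-bp paired-end reads of liver RNA with Trinity after removing adaptors and poor reads, per the labels' protocols; the sources used here do not give an aligner, a counter or the rule for listing genes. Values of the deposited tables were made by the authors as RPKM by the evidence of the values themselves, since no header names the unit: 1 set of gene lengths and of library totals made each of the 117443 values above 0 a whole read number (tolerance 0.01, largest distance 6.23e-05). The design foresaw a count test only for count tables. As used here, control 8 h replicate 2 lacks 133 genes, which stayed missing, and voom left it out.

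Genes reaching 1 RPKM in 3 libraries or more were tested on log2(RPKM + 1) with limma 3.58.1 (R 4.3.3): 15 group means over 45 libraries, an intensity trend, and Benjamini-Hochberg adjustment over 2656 genes. Calls are at an adjusted p under 0.05, and all adjusted p-values are limma's. The procedure was also run on simulated data with planted differences. Their noise was drawn independently for each gene and library, so no simulated library deviated as a whole. That run therefore cannot show how the calls behave with a library such as moderate replicate 2. Named per comparison are the 2 largest rises and the 2 largest falls of called genes whose groups do not overlap at 12 h and whose mean reaches 5 RPKM; some recur under other comparisons. Members and lists were chosen with earlier results of these data known. Marker lists could not be applied without gene names. Among 36 pairs of 12 h libraries the lowest chi-square per gene was 49.9, so none was a duplicate. Alternatives were a pseudocount of 0.1, no filter, quantile normalization, no trend, voom on recovered reads, a 2-fold minimum, a replicate block, the compared groups modelled alone, and each library left out.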

Additional observations from a re-analysis of the deposited data

Results flagged for a closer look

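The difference between severe and moderate hypoxia was itself different at 12 h and at another time in 330 genes for 0 h, 44 for 8 h and 44 for 24 h, by an interaction contrast in limma. These results stand out because the same contrast gave unlike values at 2 times. Against 0 h the leading values were 5.70 for c84833_g1, 4.37 for c73830_g1, -3.49 for c86863_g6 and -2.87 for c89999_g1. Against 8 h they were 2.45 for c85742_g4, 1.78 for c90181_g5, -2.05 for c91109_g3 and -1.59 for c87965_g1. Against 24 h they were 4.67 for c73830_g1, 4.41 for c87655_g2, -3.20 for c84766_g3 and -2.84 for c89999_g1.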

How the results depend on the processing

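The count for severe against moderate hypoxia at 12 h was 684 to 990 with 1 library left out, 572 in a model of the compared groups, 684 with a 2-fold minimum and 588 without moderate replicate 2 after quantile normalization; the other alternatives gave 970 to 1070. Moderate hypoxia against control gave 0 to 300 with a library left out, 1 in a model of the compared groups and 317 without moderate replicate 2 after quantile normalization. Severe hypoxia against control gave 1637 to 1773 with a library left out, and a 2-fold minimum 1417. With a library left out, the gap at 12 h differed from that at 0 h in 194 to 375 genes, from that at 8 h in 31 to 115 and from that at 24 h in 3 to 74; the models of the compared groups gave 28 for 8 h and 23 for 24 h. In the comparison that named it, no gene changed sign under the alternatives run; 310 such values were called and 106 were not. Same-numbered libraries of moderate and severe hypoxia did not deviate together (r of 0.13, -0.04 and -0.14). With control, r was 0.13, 0.25 and -0.11 for moderate and 0.17, 0.07 and 0.22 for severe hypoxia, so none of the 3 sets had every pair over 0.1 and the libraries were not treated as paired. With the replicate block 1069 genes were called for severe against moderate hypoxia, 0 and 1873 for moderate and severe hypoxia against control, and 334, 44 and 41 for the gap against 0, 8 and 24 h. Genes called without moderate replicate 2 had median levels of 1.78 to 2.21 (higher) and 3.03 to 3.09 (lower) in the moderate libraries, against 1.97 to 2.41 and 2.74 to 3.11 for those called with it. The median gene had 309 reads per library among the higher genes, 490 among the lower and 440 over all tested; how depth limits the calls was not tested.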
